A study of Mus musculus with 6 samples.

Results

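The regions described here are short, solitary patches of H3K9me3 in the thymus of wild-type mice. H3K9me3, trimethylation of lysine 9 on histone H3, was mapped by chromatin immunoprecipitation and sequencing (ChIP-seq), and each library was deposited as a list of enriched regions on the mm9 mouse genome. The members were chosen by position and width in the wild-type list alone: regions on chromosomes 1 to 19, narrower than 1000 bp, with every other wild-type region more than 100 kb away, edge to edge. Of 3748 wild-type regions, 3423 were autosomal, and 862 of these met the rule, or 25.2% (Wilson 95% interval 23.8 to 26.7%). They are called isolated narrow regions below. The other autosomal regions were 238 isolated regions of 1 kb or more, 587 regions below 1 kb with a neighbour within 100 kb, and 1736 wider regions with such a neighbour.

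H3K9me3 marks heterochromatin and silenced repeats. KAP1, encoded by Trim28, is a corepressor that KRAB zinc finger proteins recruit to specific DNA sequences. It brings in SETDB1, an enzyme that writes this mark, and heterochromatin protein 1, which binds it. The best known targets of this pathway are endogenous retroviruses, which often lie scattered as single insertions, and clusters of zinc finger genes, where the mark spreads over long stretches. Imprinting control regions are short targets of the same machinery.

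Both H3K9me3 libraries came from total thymocytes (labelled T cell progenitors) of mice on a mixed C57BL/6 / sv129sv background. One library came from wild-type mice and the other from mice with a T cell-specific Kap1 knockout. The labels used here state neither the age of the mice, nor the number pooled, nor the driver of the deletion. Of the 6 samples, those precipitated for KAP1 and those of input DNA were not analysed here. The lists hold positions only, so they carry no measure of Kap1, of thymocyte markers, of read depth or of the strength of a region. With 1 library per genotype no difference could be set against variation between animals, and every interval below covers counting error only. Regions are not replicates.

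Isolated narrow regions were spread almost evenly over the autosomes. From the first to the last region of either list, the autosomes spanned 2393 Mb, and isolated narrow regions numbered 0.360 per Mb (exact Poisson 95% interval 0.337 to 0.385). The lowest density was on chromosome 7, with 43 regions or 0.291 per Mb (0.211 to 0.393). The highest was on chromosome 18, with 36 regions or 0.410 per Mb (0.287 to 0.568). The intervals of all 19 autosomes held the pooled density, so no autosome stood apart beyond counting error. The density varied 1.41-fold between the extremes, with a coefficient of variation of 9.30% over the 19 autosomes.

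Their number thus followed the length of the chromosome. Chromosome 1, the longest with a span of 193.7 Mb, held 74, chromosome 2 held 64, chromosome 3 held 60, and chromosome 19, the shortest with 58.3 Mb, held 23. Over the 19 autosomes the number of isolated narrow regions and the span had a Pearson correlation of 0.93 (Spearman 0.86), given as a description. Regions with a neighbour within 100 kb behaved otherwise, from 0.296 per Mb on chromosome 18 to 3.25 per Mb on chromosome 7, an 11.0-fold range with a coefficient of variation of 78.9%. Their number and the span had a Pearson correlation of 0.34 (Spearman 0.43). The rule sorts regions by crowding, since grouped regions are clumped by definition and isolated ones lie apart. Part or all of this contrast in evenness is thus set by construction, and how much was not tested. Isolated regions of 1 kb or more ranged from 0.0397 per Mb on chromosome 10 to 0.203 per Mb on chromosome 7, with a coefficient of variation of 40.6%. They number only 238 against 862, so counting error adds more to their variation, and its part was not tested. The share of a chromosome's wild-type regions that were isolated and narrow therefore ran from 7.79% on chromosome 7 to 50% on chromosome 18.

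**Figure D1:**
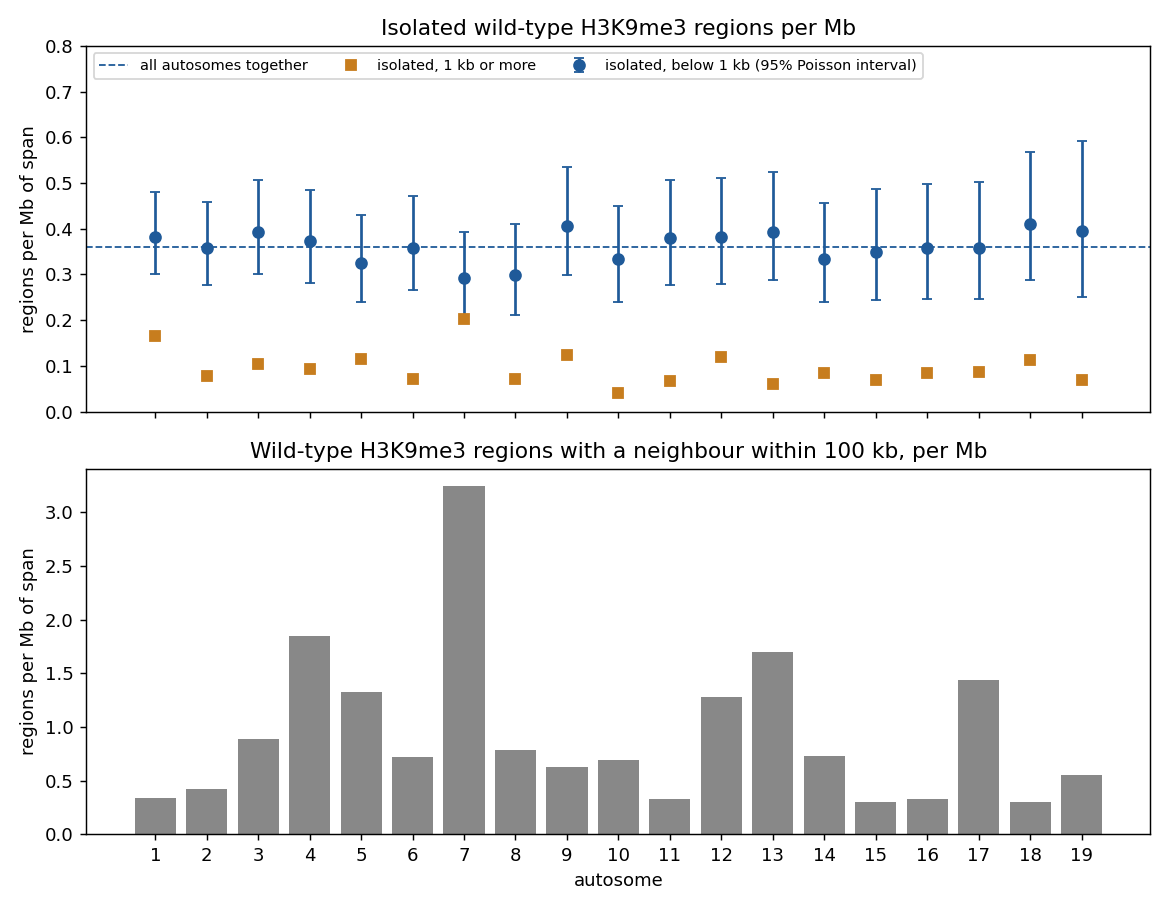
Wild-type H3K9me3 regions per Mb of span on each autosome: isolated regions below 1 kb (circles, 95% Poisson intervals) and of 1 kb or more (squares) above, regions with a neighbour within 100 kb (bars) below. The circles lie between 0.291 and 0.410 per Mb, while the bars run from 0.296 to 3.25 per Mb.

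The rule itself removes stretches near grouped regions, where no region can be isolated. Leaving out 100 kb on each side of every grouped region left 2287 Mb, or 95.6% of the span. On this free span, isolated narrow regions numbered 0.377 per Mb, from 0.311 on chromosome 8 to 0.422 on chromosome 13, and chromosome 7 had 0.335. The coefficient of variation over autosomes was 8.46%.

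Along the chromosomes the isolated narrow regions were also spread out. With each span divided into 5 equal parts in the order of the coordinates, these parts held 186, 167, 160, 162 and 187 of them, or 21.6, 19.4, 18.6, 18.8 and 21.7%. Of the autosomal regions with a neighbour within 100 kb, 35.4% lay in the first of these parts and 14.4 to 17.8% in each of the others. Here too the rule, which sorts by crowding, may set the contrast. The median distance from one isolated narrow region to the start of the next was 1831 kb (quartiles 861 and 3759 kb).

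The distance to the nearest wild-type region of any kind had a median of 621 kb (quartiles 294 and 1244 kb). For 545 of the 862 the nearest region was another isolated narrow one, for 153 an isolated region of 1 kb or more, and for 164 a grouped region. The member farthest from any other lay on chromosome 17 from 71312951 to 71313515, 7683 kb from its nearest wild-type region. The next, on chromosome 2 from 133112540 to 133112794, was 7469 kb away. Those on chromosome 11 from 19541214 to 19541994, chromosome 15 from 103106488 to 103106658 and chromosome 5 from 72541781 to 72542026 were 6247, 5646 and 5385 kb away. None of these 5 overlapped a knockout region.

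At the gap limit, the members on chromosome 4 from 15736572 to 15737047 and from 15840578 to 15841063 lay 103.5 kb from each other. The next was on chromosome 6, from 130539106 to 130539710, with 103.7 kb. Just outside, the regions on chromosome 14 from 109498119 to 109498875 and from 109598591 to 109599079 were 99.7 kb apart, and one on chromosome 12 from 20596339 to 20596650 was 98.6 kb from its neighbour.

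Most isolated narrow regions were only a few nucleosomes long. Width, which the rule used, had a median of 465 bp (quartiles 316 and 659 bp), and 473 of the 862, or 54.9%, were narrower than 500 bp. In steps of 100 bp the largest number, 152, measured 300 to 399 bp, and the number then fell steadily to 59 at 900 to 999 bp. Below 200 bp there were 76. The isolated narrow regions covered 430 kb in all, which was 4.23% of the bases in autosomal wild-type regions, although they made up 25.2% of those regions by number. Median widths by chromosome ran from 330 bp on chromosome 15 and 349 bp on chromosome 13 to 613 bp on chromosome 12.

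The narrowest were a 64 bp region on chromosome 3 from 152364558 to 152364621, a 73 bp region on chromosome 1 from 20533988 to 20534060 and a 78 bp region on chromosome 13 from 70873250 to 70873327. Next came an 83 bp region on chromosome 4 from 153315357 to 153315439 and a 112 bp region on chromosome 2 from 20181915 to 20182026. Each is shorter than the DNA wrapped on a single nucleosome, and none had a knockout partner. The 3 widest were 997 bp on chromosome 19 from 8096890 to 8097886, 996 bp on chromosome 3 from 9450909 to 9451904 and 996 bp on chromosome 4 from 100985863 to 100986858. Regions of 995 bp on chromosome 9 from 89775018 to 89776012 and 992 bp on chromosome 14 from 123882829 to 123883820 followed. They too had no knockout partner. Just past the limit, isolated regions of 1004, 1005 and 1006 bp lay on chromosomes 12, 4 and 1, again with no partner, so the limit of 1000 bp fell inside a continuous range of widths.

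Few isolated narrow regions were also called in the knockout. Of the 862, 51 shared at least 1 base with a knockout region, or 5.92% (Wilson 95% interval 4.53 to 7.70%), and 811 did not. Among all autosomal wild-type regions the share was 14.6%. Knockout regions covered 0.163% of the autosomal span and 4.58% of the bases in isolated narrow regions, 19.7 kb of 430 kb. A missing call in the knockout is not a measurement of lost methylation, because signal under the calling threshold leaves no trace in these lists. Depth and enrichment of the knockout library are unknown, and their part in the low share was not tested.

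**Figure D2:**
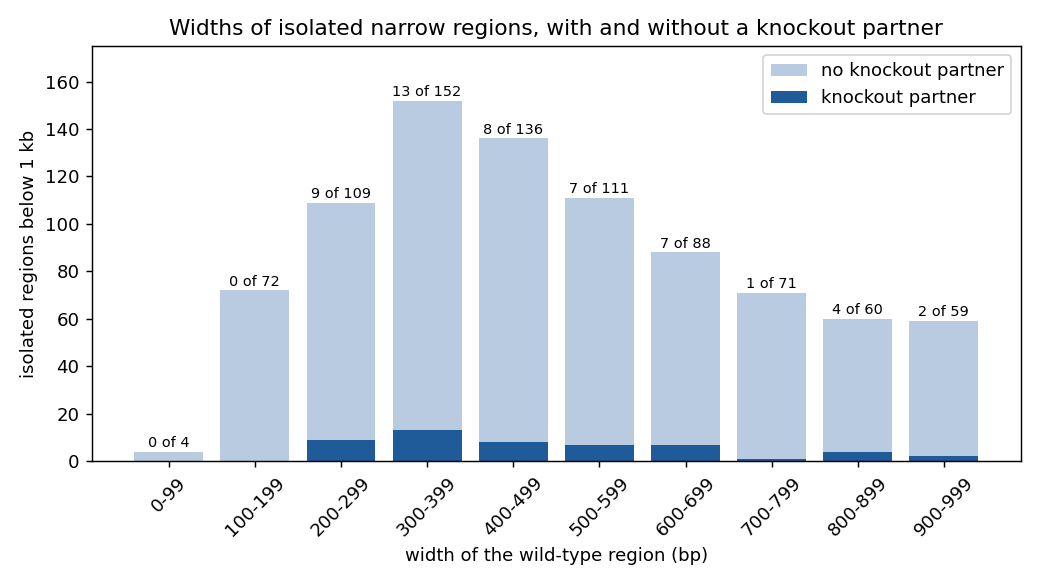
Number of isolated narrow wild-type H3K9me3 regions by width in steps of 100 bp, with those that overlap a knockout region in dark colour and their number above each bar. Regions with a partner occur from 200 bp upward at every step, and none of the 76 regions below 200 bp has one.

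Within the isolated narrow regions the share with a partner did not climb steadily with width, and it was lowest below 250 bp. It was 2.78% below 250 bp (4 of 144; Wilson 1.09 to 6.92%), 7.90% at 250 to 499 bp (26 of 329; 5.45 to 11.3%), 6.33% at 500 to 749 bp (15 of 237; 3.87 to 10.2%) and 3.95% at 750 to 999 bp (6 of 152; 1.82 to 8.34%). These intervals overlap. Median widths were 427 bp for the 51 regions with a partner and 467 bp for the 811 without. None of the 76 regions below 200 bp had a partner, which allows a share of up to about 3.95% (3 divided by 76, not a Wilson limit). The knockout list holds only 6 autosomal regions that narrow, the narrowest of 134 bp. Among the 786 members of 200 bp or more the share was 6.49% (4.97 to 8.43%). The cut at 200 bp was not planned beforehand and lies just under the narrowest member with a partner, 202 bp wide.

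Between isolated and grouped narrow regions no difference was detectable in the share with at least 1 base in a knockout region. Of the 587 narrow regions with a neighbour within 100 kb, 32 had a knockout partner, or 5.45% (Wilson 3.89 to 7.59%). The share of isolated narrow regions was 0.47 percentage points higher (Newcombe 95% interval -2.09 to 2.83), an interval that holds differences of either sign. With a reciprocal overlap of at least 50% required, a comparison chosen with its value known, 40 isolated narrow regions had a partner (4.64%) and 11 grouped ones (1.87%), a difference of 2.77 points (0.87 to 4.58). Of the 32 grouped narrow regions with a partner, 18 paired 1 to 1. The grouped narrow regions were wider, with a median of 626 bp. Weighted to the width steps of the isolated ones, a weighting added with these values already known, their share was 4.90%.

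Against wider isolated regions the difference rested on a small number of very wide ones. Of the 238 isolated regions of 1 kb or more, 34 had a partner, or 14.3% (10.4 to 19.3%), and the share of isolated narrow regions minus this one was -8.37 percentage points (Newcombe -13.6 to -4.10). By the midpoint rule, under which the middle of the wild-type region must lie in a knockout region whatever its width, the difference was -6.31 points (-11.2 to -2.41). The 24 isolated regions of 4000 bp or more had a partner in 17 cases, or 70.8% (50.8 to 85.1%). The 214 of 1 to under 4 kb had one in 17, or 7.94% (5.02 to 12.4%). Against these alone, a choice made with the shares already known, the difference was -2.03 points (-6.65 to 1.40), and the interval no longer lay on one side of 0. Up to 4 kb, then, the observed share of isolated regions with a partner was under 10% at every width step. The upper Wilson limits ran higher, up to 16.9% at 2000 to 3999 bp (2 of 39).

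**Figure D3:**
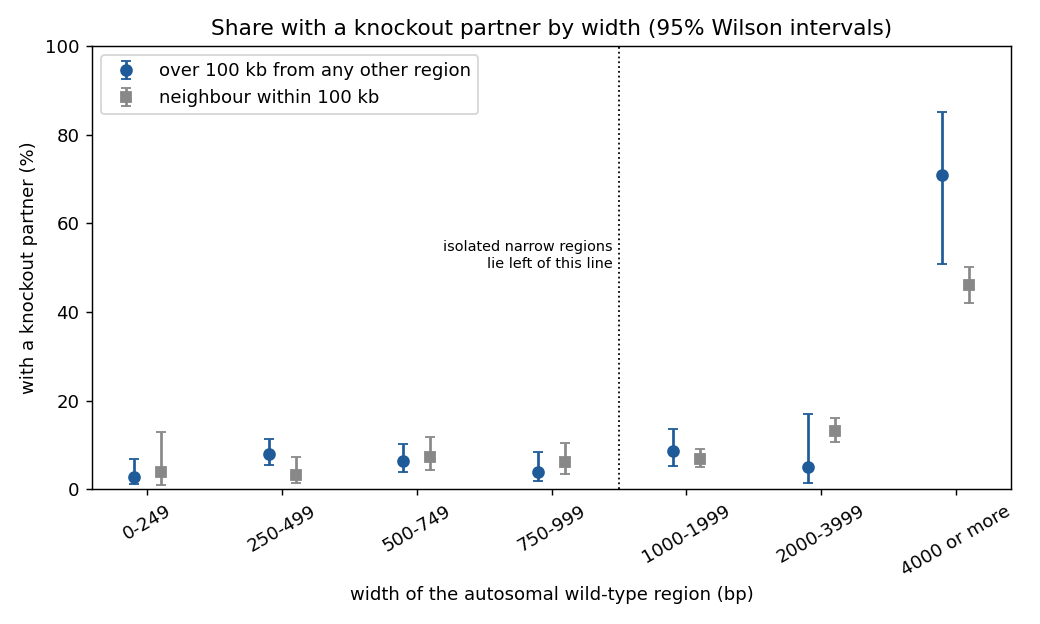
Share of autosomal wild-type H3K9me3 regions with a knockout partner (%, 95% Wilson intervals) by width, for regions over 100 kb from any other (circles) and with a neighbour within 100 kb (squares). The observed shares of isolated regions stay below 10% up to 4 kb, with upper limits of up to 16.9%, and reach 70.8% at 4000 bp or more.

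An isolated narrow region either met a knockout region directly or was far from any. Of the 811 without a partner, 0 had a knockout region within 10 kb and 3 within 100 kb, while 678 (83.6%) were more than 1 Mb away. The median distance was 3978 kb (quartiles 1623 and 8925 kb). The 3 closest are named because of this value. The first lay on chromosome 1 from 102989680 to 102989851, 10.5 kb from a knockout region, and the next on chromosome 6 from 132246225 to 132246468, 29.6 kb away. The third, on chromosome 2 from 125333410 to 125333896, was 93.5 kb away. The pattern was not particular to narrow regions. Of the 238 isolated regions of 1 kb or more, 34 overlapped a knockout region. Among the rest, 0 had one up to 10 kb away and 1 had one at 10 to 100 kb. Of the 587 narrow regions with a neighbour, 91 had a knockout region within 10 kb or overlapping, or 15.5% (Wilson 12.8 to 18.7%), against 51 of 862 isolated ones, a difference of -9.59 percentage points (Newcombe -13.0 to -6.35). Part or all of this is set by construction, and how much was not tested. From overlap to 10 kb the isolated count stayed at 51, and the grouped count rose from 32 to 91. No wild-type region lies within 100 kb of a member, so a knockout region close to it without touching it would as a rule be one of the 52 autosomal knockout regions that have no wild-type partner.

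**Figure D4:**
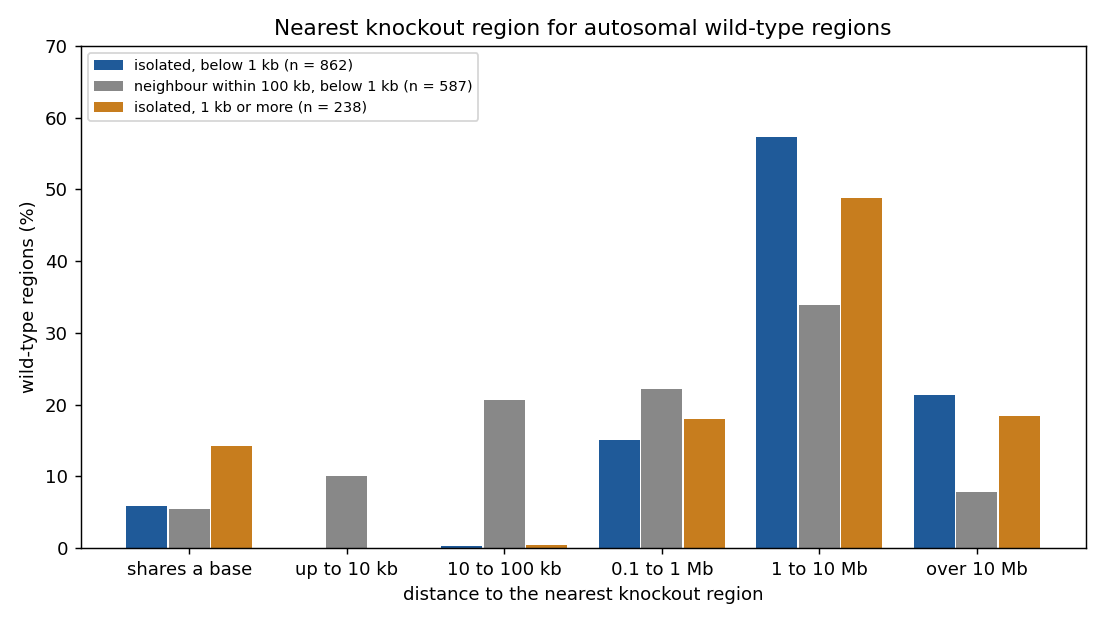
Distance from autosomal wild-type H3K9me3 regions to the nearest knockout region (% of each group) for isolated regions below 1 kb (862), narrow regions with a neighbour within 100 kb (587) and isolated regions of 1 kb or more (238). Isolated narrow regions are at 5.92% for a shared base, 0% up to 10 kb and 57.3% at 1 to 10 Mb. Isolated regions of 1 kb or more are also at 0% up to 10 kb.

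Regions with a partner were found on 17 of the 19 autosomes. Chromosome 3 had the most, 6 of 60, and chromosomes 4, 6, 13 and 16 had 5 each, of 56, 51, 46 and 34. Chromosomes 9 and 19 had 4 each, of 49 and 23. Chromosomes 10 and 15 had none among 42 and 35, with upper Wilson limits of 8.38 and 9.89%. For chromosomes 10 and 15 the whole knockout list held 17 and 2 regions.

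The largest shares were 17.4% on chromosome 19 (Wilson 6.98 to 37.1%) and 14.7% on chromosome 16 (6.45 to 30.1%), and both intervals lay above the pooled 5.92%. Over all wild-type regions of these chromosomes the shares were 15.3 and 17.8%. The intervals of the other 17 autosomes held the pooled 5.92%. The 2 longest chromosomes together had 2 partners among 138 isolated narrow regions, or 1.45% (0.398 to 5.13%). On chromosome 1 the share was 18.6% over all wild-type regions, against 1.35% of its isolated narrow regions. These chromosomes were picked after their values were seen. The closest members with a partner, also picked by value, lay on chromosome 6 from 48071155 to 48071400 and from 49186311 to 49186653. They were 1115 kb apart, with another isolated narrow region without a partner between them. The median distance between successive members with a partner on a chromosome was 17329 kb, with only 51 of them on a span of 2393 Mb.

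The share with a partner showed no steady trend with the degree of isolation. The share was 6.21% (11 of 177) with the nearest wild-type region at 100 to 250 kb, 4.95% (9 of 182) at 250 to 500 kb, 4.57% (10 of 219) at 500 to 1000 kb, 6.82% (12 of 176) at 1000 to 2000 kb and 8.33% (9 of 108) beyond. The Wilson intervals of these shares all overlapped, the last running from 4.45 to 15.1%, which is not a test of a trend. Split by the kind of nearest wild-type region, 36 of 545 beside another isolated narrow region had a partner. So did 3 of 153 beside an isolated region of 1 kb or more and 12 of 164 beside a grouped region. A difference between these kinds was not tested. Across the 5 parts of the chromosome spans the shares were 5.91, 6.59, 4.38, 8.02 and 4.81%, with overlapping intervals.

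Where an isolated narrow region had a partner, the knockout region was nearly the same stretch. All 51 paired 1 to 1, which their isolation makes likely. The partner covered a median of 90.6% of the wild-type region (quartiles 75.0 and 97.6%), and a median of 99.6% of the partner lay inside the wild-type region. The median distance between starts was 27 bp and that between ends 36 bp. In 31 pairs, or 60.8% (Wilson 47.1 to 73.0%), both edges lay within 100 bp, and in the other 20 an edge lay farther off. In 27 pairs, or 52.9% (39.5 to 65.9%), at least one edge lay within 10 bp.

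At a tolerance of 10 bp, a comparison not planned beforehand, matching edges were more frequent here than in the pairs of other regions. At least one such edge was found in 3 of 18 pairs of narrow regions with a neighbour (16.7%), a difference of 36.3 percentage points (Newcombe 10.0 to 53.2). It was found in 3 of 34 pairs of isolated regions of 1 kb or more (8.82%), a difference of 44.1 points (24.6 to 58.3). The narrow regions with a neighbour are the closer comparison in width, and their 18 pairs leave out those that did not pair 1 to 1. With 50 bp allowed, an edge matched in 44 of the 51 pairs here (86.3%, Wilson 74.3 to 93.2%). It did in 12 of the 18 (66.7%, 43.7 to 83.7%), an overlapping interval, and in 14 of the 34 (41.2%, 26.4 to 57.8%). Both edges within 100 bp were more frequent here by 33.0 points (Newcombe 6.15 to 52.6) and 43.1 points (22.2 to 58.5), respectively. A short region leaves a nested partner little room to differ at its edges, and the part of width in these differences was not tested.

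Pairs with matching edges included some of the closest agreements in the lists. On chromosome 3 a region from 95848544 to 95849020 was 477 bp wide in both lists and shifted by 4 bp. On chromosome 19 the region from 61000533 to 61000872, 340 bp wide, had a knockout partner of 336 bp whose start differed by 5 bp and whose end differed by 1 bp. On chromosome 6 the 357 bp region from 103598994 to 103599350 had a partner of 345 bp from 103598999 to 103599343. Outside the rule for named regions, and chosen after their values were seen, a 202 bp region on chromosome 1 from 58670718 to 58670919 had a partner of 194 bp, and a 266 bp region on chromosome 19 from 18995869 to 18996134 had one of 261 bp. These last 2 differed by at most 7 bp at each edge.

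The widest member with a partner lay on chromosome 12 from 68160100 to 68161054, 955 bp wide, and its partner from 68160119 to 68161117 measured 999 bp. The second widest was on chromosome 3 from 4064939 to 4065871, 933 bp against 897 bp in the knockout. Other wide members with a partner included one on chromosome 18 from 85885396 to 85886195, 800 bp against 675 bp. On chromosome 11 the region from 53953530 to 53954201 was 672 bp wide with a partner of 609 bp, and on chromosome 8 the one from 14306636 to 14307294 was 659 bp wide with a partner of 583 bp. In the last 4 of these 5 the partner lay inside the wild-type region, and it covered 84.4 to 96.1% of it.

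In 5 pairs the knockout region was under 0.5 times as wide as the wild-type region. The narrowest in proportion was on chromosome 16 from 74780280 to 74780991, where a 712 bp wild-type region held a 152 bp knockout region near its end. On the same chromosome the 879 bp region from 57390924 to 57391802 held one of 270 bp. The others were 885 bp against 328 bp on chromosome 3 from 99784483 to 99785367, 531 bp against 194 bp on chromosome 4 from 20118631 to 20119161, and 651 bp against 296 bp on chromosome 6 from 93773661 to 93774311. Each of these 5 partners lay inside its wild-type region and toward its higher-coordinate edge, with ends 3 to 78 bp apart and starts 277 to 589 bp apart. They were the 5 pairs in which the partner covered less than 50% of the wild-type region.

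In 8 pairs the knockout region was more than 1.5 times as wide as the wild-type region, and the first 2 given here lie outside the rule for named regions. The largest difference was on chromosome 7, where a 265 bp wild-type region from 27924749 to 27925013 lay at the end of a 1382 bp knockout region from 27923630 to 27925011, the ends 2 bp apart. On chromosome 2 a 315 bp region from 180485566 to 180485880 lay at the end of a knockout region of 1355 bp from 180484504 to 180485858. On chromosome 17 a 414 bp region from 29825949 to 29826362 met a knockout region of 832 bp, and on chromosome 14 the 347 bp region from 87793667 to 87794013 lay within one of 650 bp. On chromosome 13 the 609 bp region from 41371325 to 41371933 had a partner of 972 bp with its start 1 bp away. The remaining 3 had wild-type widths of 223 to 278 bp and knockout widths of 425 to 704 bp. A wider knockout call mostly extended past one edge, and in 3 of the 51 pairs it reached past both.

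**Figure D5:**
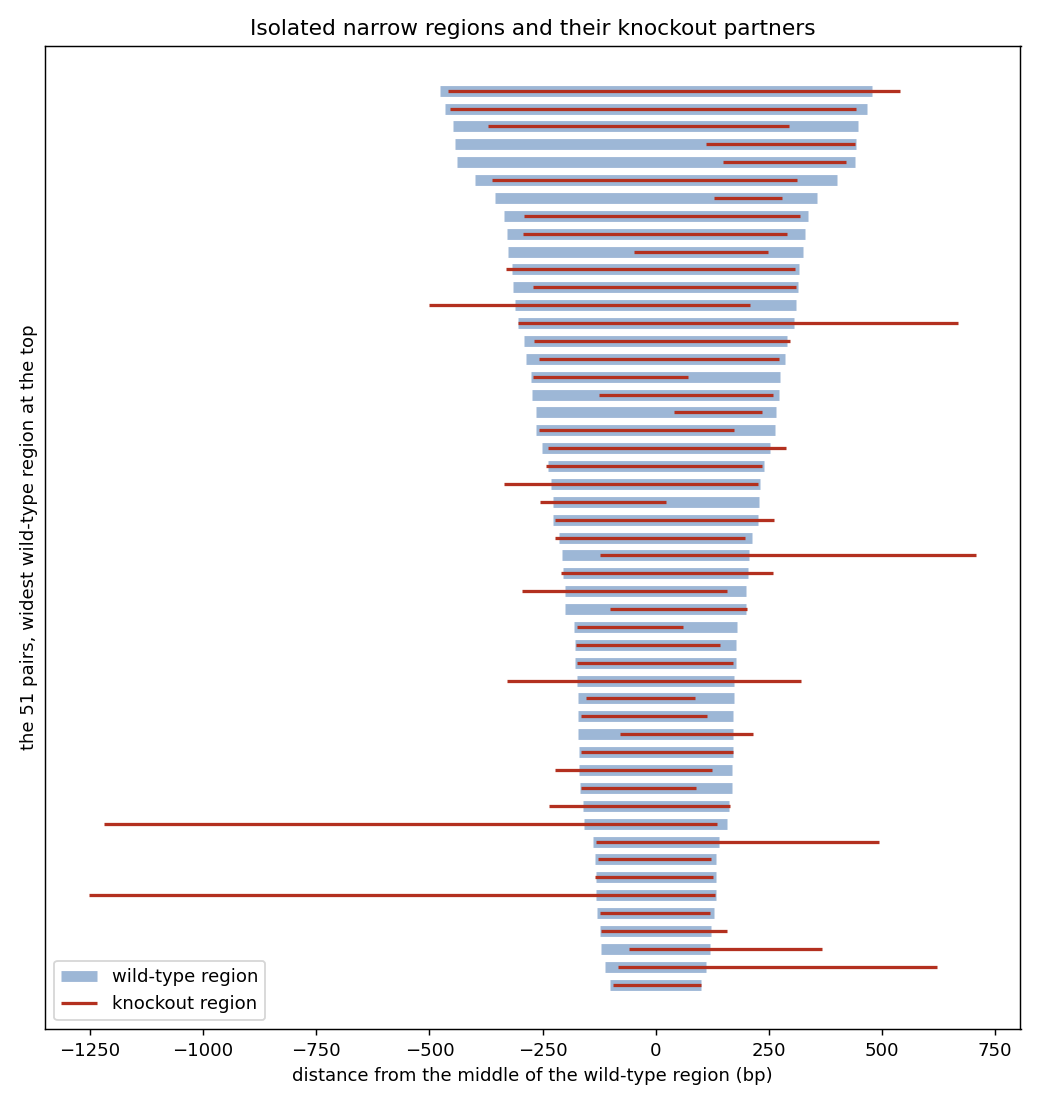
The 51 isolated narrow wild-type H3K9me3 regions with a knockout partner, each drawn to scale around its middle (thick bars, bp), with the knockout region on top (thin lines). Most lines match the bar or share one of its edges; the 2 longest lines are the knockout regions of 1382 and 1355 bp.

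Over all 51 pairs the interval of the median width ratio held equal widths, although more knockout regions were narrower than wider. The knockout region was narrower in 31, wider in 19 and equal in 1. It lay wholly inside the wild-type region in 24 pairs (47.1%), and the wild-type region lay inside it in 3 (5.88%). The median ratio of knockout to wild-type width was 0.961, or -0.06 on the log2 scale (95% interval of the median from order statistics -0.17 to 0.01). The extremes were 0.213 and 5.22. The knockout region was wider in 12 of the 26 pairs with wild-type widths up to the median of 427 bp and in 7 of the 25 above it, and the rule bounds the wild-type width but not the knockout width.

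The other members with a partner, named by the same rule, filled in the range between these cases. On chromosome 3 they were at 56379187 to 56379733, 117052514 to 117053148 and 141854435 to 141854962, with widths of 547, 635 and 528 bp against 384, 638 and 431 bp in the knockout. On chromosome 4 they were at 28103936 to 28104279, 64158702 to 64159154, 70039094 to 70039452 and 152365570 to 152366463, with 344, 453, 359 and 894 bp against 241, 485, 234 and 666 bp. Chromosome 9 had regions at 13422571 to 13423141, 35112737 to 35113240 and 123370892 to 123371352, with 571, 504 and 461 bp against 532, 527 and 560 bp. The knockout width in these 10 pairs was 0.652 to 1.21 times the wild-type width. On chromosomes 12 and 13 they lay at 70754867 to 70755486, 79451805 to 79452203, 4560526 to 4560934 and 100560824 to 100561180, with 620, 399, 409 and 357 bp against 708, 304, 469 and 318 bp. The region at 86820945 to 86821524 on chromosome 16 measured 580 bp, with a partner of 565 bp, and that at 36621348 to 36621977 on chromosome 17 measured 630 bp, with a partner of 580 bp. On chromosome 6 the regions at 49186311 to 49186653 and 115972125 to 115972461 had 343 and 337 bp against 294 and 346 bp. Chromosome 19 had 456 bp against 278 bp at 23431874 to 23432329 and 400 bp against 453 bp at 45724399 to 45724798. Single regions of 549, 427, 343 and 335 bp lay on chromosomes 11, 8, 16 and 18, at 106920990 to 106921538, 24205913 to 24206339, 10975111 to 10975453 and 56099070 to 56099404. Their partners measured 342, 418, 278 and 253 bp. Which genes or repeats these positions fall in was not analysed here, because no annotation or sequence of the mm9 build was used.

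The partners also lay far from other knockout regions, which the rule largely sets, since most knockout regions overlap a wild-type region and none of those lies near a member. Their median distance to the nearest other knockout region was 3495 kb, and the closest was 232 kb away. The partners had a median width of 425 bp (152 to 1382 bp), and 49 of the 51 were below 1 kb.

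The same rule applied to the knockout list gave 97 isolated narrow autosomal regions. The wild-type list thus had 8.89 times as many (exact binomial 95% interval 7.20 to 11.1), against 7.03 times for all autosomal regions (6.39 to 7.74). The rule is easier to meet in a shorter list, where regions lie farther apart. Of the 97, 65 overlapped a wild-type region, or 67.0% (Wilson 57.2 to 75.6%), below the 89.3% of all autosomal knockout regions. For 49 of them that wild-type region was itself isolated and narrow. The other 32 had no wild-type region within 10 kb, and they made up 32 of the 52 autosomal knockout regions with no partner.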

How the data were processed

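ChIP-seq of H3K9me3 was made from crosslinked, sonicated chromatin with a polyclonal Diagenode antibody, size-selected fragments and PCR amplification, per the labels' protocols. Alignment used Bowtie to mm9, per the submitters' processing notes. The region caller, its settings, its use of input and the treatment of multiply mapping reads are not given in the sources used. The authors' deposited lists give chromosome, start, end and a constant strand sign, with no count or score. Starts were read as counted from 0 and are printed counted from 1.

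Regions were sorted, gaps measured edge to edge (a region at the end of a chromosome's list has 1 neighbour), and partners defined by an overlap of at least 1 base with Python 3.11.15, pandas 2.3.3 and scipy 1.17.1. Shares have Wilson, differences of shares Newcombe, densities exact Poisson 95% intervals; no p-value was computed. The procedure was tested on simulated lists. The members and lists were chosen with earlier results of these data known. Named regions were the 40 widest members with a partner, the 5 widest and 5 narrowest without one, the 5 farthest from a wild-type region and 3 on each side of both limits; others are said to be chosen later. The RefSeq tables at hand are on GRCm38, so no gene, gene list, sequence or marker was placed.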

Additional observations from a re-analysis of the deposited data

How the results depend on the processing

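The share of isolated narrow regions with a knockout partner, 5.92%, stayed within its interval under every change tried, from 4.64% with a reciprocal overlap of 50% to 6.36% with widths up to 2000 bp. Isolated narrow regions as a share of autosomal wild-type regions, 25.2%, were 27.9% with a gap above 50 kb, 21.4% above 200 kb, 13.8% with widths below 500 bp, 30.3% with widths below 2000 bp and 37.6% with neighbours up to 10 kb apart joined first. In the last, the 862 regions were the same in number and only the list shrank. Their density, 0.360 per Mb, was 0.399 with a gap above 50 kb and 0.307 above 200 kb. These changes alter the rule itself. The difference to isolated regions of 1 kb or more, -8.37 points, was -2.03 points against those of 1 to under 4 kb (chosen after seeing the data), where the interval held 0. The difference to narrow regions with a neighbour, 0.47 points, turned to -9.59 points when knockout regions up to 10 kb away counted, since only regions with neighbours then gain partners. With a reciprocal overlap of 50%, chosen after seeing the data, it was 2.77 points (0.87 to 4.58), on one side of 0; the cause was not tested. Of 37 values, 27 kept their side or stayed within their interval. No paired analysis was possible because there is a single library per genotype. How deeply either library was sequenced is not known, which limits all of these values.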

Other observations

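Both lists hold calls on the mitochondrial genome, which is not packaged by histones: 3 regions in wild type and 1 in the knockout. They lie outside the autosomal rule, and their relation to the isolated narrow regions was not tested. The member farthest from any knockout region lay on chromosome 1 from 3406119 to 3406441, 43004 kb away, and it was chosen after its value was seen. Of the 51 pairs, 44 had at least one edge within 50 bp (86.3%, Wilson 74.3 to 93.2%), and 31 had both within 100 bp. Of the other 20, 13 had an edge within 50 bp and 7 had none.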
